A study of Mus musculus with 8 samples.

Results

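The interferon-inducible GTPases described here are 10 mouse genes of 3 families, the guanylate-binding proteins (Gbp2, Gbp3, Gbp6 and Gbp7), the immunity-related GTPases (Igtp, Iigp1, Irgm1 and Irgm2) and the Mx proteins (Mx1 and Mx2). A member was kept where the platform annotation gave a probe set to that gene alone. This was so for 6 of the 10 genes, Gbp3, Gbp7, Iigp1, Irgm1, Mx1 and Mx2, with 1 probe set each, among 18154 probe sets with 1 gene symbol and 23442 in all. The other 4 were annotated only on probe sets shared with related genes. Gbp2 shared its probe set with Gbp2b, Igtp and Irgm2 shared 1 between them, and Gbp6 lay on a probe set of 6 Gbp genes. No value is given for these 4.

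The colon was sampled at its most distal end in males of BALB/c, an inbred laboratory strain of mouse, whose age is given as 5 weeks. In the AA group (4 arrays) appendicitis was set off in the lymphoid follicles of the caecum, which stand in for an appendix in the mouse, and the inflamed part was taken out 1 week later. In the SS group (4 arrays) the abdomen was opened in a sham operation, and again 1 week later. The animals carried no transgene or targeted allele in either group, as far as the labels say, and the labels give no day of harvest. Each array held RNA of 1 colon sample, and the labels name 2 batches with 2 arrays of each group in each. Animals are not named in the labels, and the p-values therefore rest on the spread among the 8 colon samples, which may be partly technical.

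GTPases of these families are made at a low level in resting cells and accumulate after interferons bind their receptors. Guanylate-binding and immunity-related GTPases respond strongly to interferon gamma, gather on the membranes of vacuoles that hold bacteria or parasites and help to break them open. The Mx proteins are relatives of dynamin that block virus replication, and they answer mainly to type I and type III interferons. In the gut the 3 families are expressed by epithelial cells as well as by macrophages and other immune cells. In most inbred laboratory strains the Mx genes carry disabling mutations, and RefSeq lists both Mx1 and Mx2 of the C57BL/6J genome as transcribed pseudogenes.

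Values are log2 expression per probe set, so a difference of 1 is a 2-fold difference. Array medians lay between 6.93 and 6.99, and the correlation between 2 arrays, taken over probe sets, was 0.975 to 0.996. The deposited values have the same mean in both batches for every probe set, to within 0.00006. A high reading on 1 array therefore goes with lower readings on the other 3 arrays of its batch. AA replicate 3 and SS replicate 1 stood apart in the member genes. The members, and the other GTPase and pathway lists or some genes named from them, are given with and without these arrays. Of the marker lists this is done for those of macrophages, neutrophils and mesothelium. Markers of colonocytes and goblet cells averaged 12.83 to 12.94 in AA arrays and 12.72 to 12.90 in SS arrays, well above the median level of 7.13 over all tested probe sets, which fits the labelled tissue.

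The promoter windows of Gbp3, Gbp7 and Irgm1, the 3 measured members that the RefSeq promoter table covers, are shown because their letters match motifs known from interferon-responsive promoters. Each runs from 250 bases before to 50 bases after an annotated start on build GRCm38.p6 and is written 5′ to 3′ on the gene's own strand. Capitals mark matches to the interferon-stimulated response element (GAAA, any 2 bases, then GAAA) or its reverse complement and to the gamma-activated site TTCNNNGAA, the usual names of these sequence motifs.
Gbp3, chr3:142559794-142560093, plus strand: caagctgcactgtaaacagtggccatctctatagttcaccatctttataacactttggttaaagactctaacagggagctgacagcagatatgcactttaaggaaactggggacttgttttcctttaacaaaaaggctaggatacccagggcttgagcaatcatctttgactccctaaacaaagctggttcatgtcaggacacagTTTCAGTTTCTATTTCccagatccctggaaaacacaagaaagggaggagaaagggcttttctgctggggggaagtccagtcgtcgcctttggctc
Gbp7, chr3:142530086-142530385, plus strand: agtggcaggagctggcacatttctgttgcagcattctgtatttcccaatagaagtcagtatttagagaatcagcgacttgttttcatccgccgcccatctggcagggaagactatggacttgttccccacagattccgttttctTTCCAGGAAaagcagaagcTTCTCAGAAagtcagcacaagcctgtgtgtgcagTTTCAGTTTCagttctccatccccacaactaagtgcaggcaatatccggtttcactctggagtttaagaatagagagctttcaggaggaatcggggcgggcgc
Irgm1, chr11:48871371-48871670, minus strand: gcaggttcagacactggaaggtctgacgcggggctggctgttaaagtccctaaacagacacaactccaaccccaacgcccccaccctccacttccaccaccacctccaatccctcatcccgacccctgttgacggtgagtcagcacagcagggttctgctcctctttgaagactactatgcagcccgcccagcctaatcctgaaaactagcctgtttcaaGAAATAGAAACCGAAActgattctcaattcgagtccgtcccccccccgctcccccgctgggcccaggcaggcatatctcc

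The Gbp3 window held 2 response elements that overlap, TTTCAGTTTC from 45 bases and TTTCTATTTC from 39 bases before the start. A second annotated start of Gbp3 had a window with no match to either motif. Gbp7 held 1 response element, TTTCAGTTTC, 53 bases before its start, and 2 gamma-activated sites, TTCCAGGAA at 106 and TTCTCAGAA at 87 bases before it. In Irgm1 the 2 response elements also overlapped, with GAAATAGAAA from 30 bases and GAAACCGAAA from 24 bases before the start. Among the members without a probe set of their own, Igtp had TTCTAGGAA and GAAACTGAAA at 45 and 34 bases before its start, and Irgm2 had TTCCAGGAA and GAAACTGAAA at 75 and 64. Gbp2 had 1 response element, TTTCACTTTC, 59 bases before its start. In all, 6 of the 7 member windows kept held a response element and 3 held a gamma-activated site. Member windows on chromosome 18 were not kept. Over the 32851 windows of the table, chromosome 18 included and searched on both strands, 3.44% held the first motif, 8.30% the second and 0.454% both. A match of letters is a description of the sequence and does not show that a factor was bound in these samples.

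All 6 measured GTPase genes had a higher mean in AA colon than in SS colon, by log2 differences of 0.61 to 1.41 and a median of 0.82, against a median of 0.0033 over all 18154 tested probe sets. A difference above 0 was seen in 51.0% of all tested probe sets. None of the 6 passed the threshold, an adjusted p of 0.05 in limma with Benjamini-Hochberg adjustment over all tested probe sets, and 0% of all tested probe sets did. At an unadjusted p under 0.05 in limma, 4 of the 6 were higher, Gbp3, Irgm1, Mx1 and Mx2, beside 5.38% of all tested probe sets, and 0 of the 6 were lower, beside 2.7%. The groups did not overlap in 1 of the 6, Mx2, whose 4 AA arrays were all above its 4 SS arrays, which was true of 4.21% of all tested probe sets. All 4 AA arrays were below all 4 SS arrays in 0 of the 6 and in 2.18% of all tested probe sets.

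**Figure D1:**
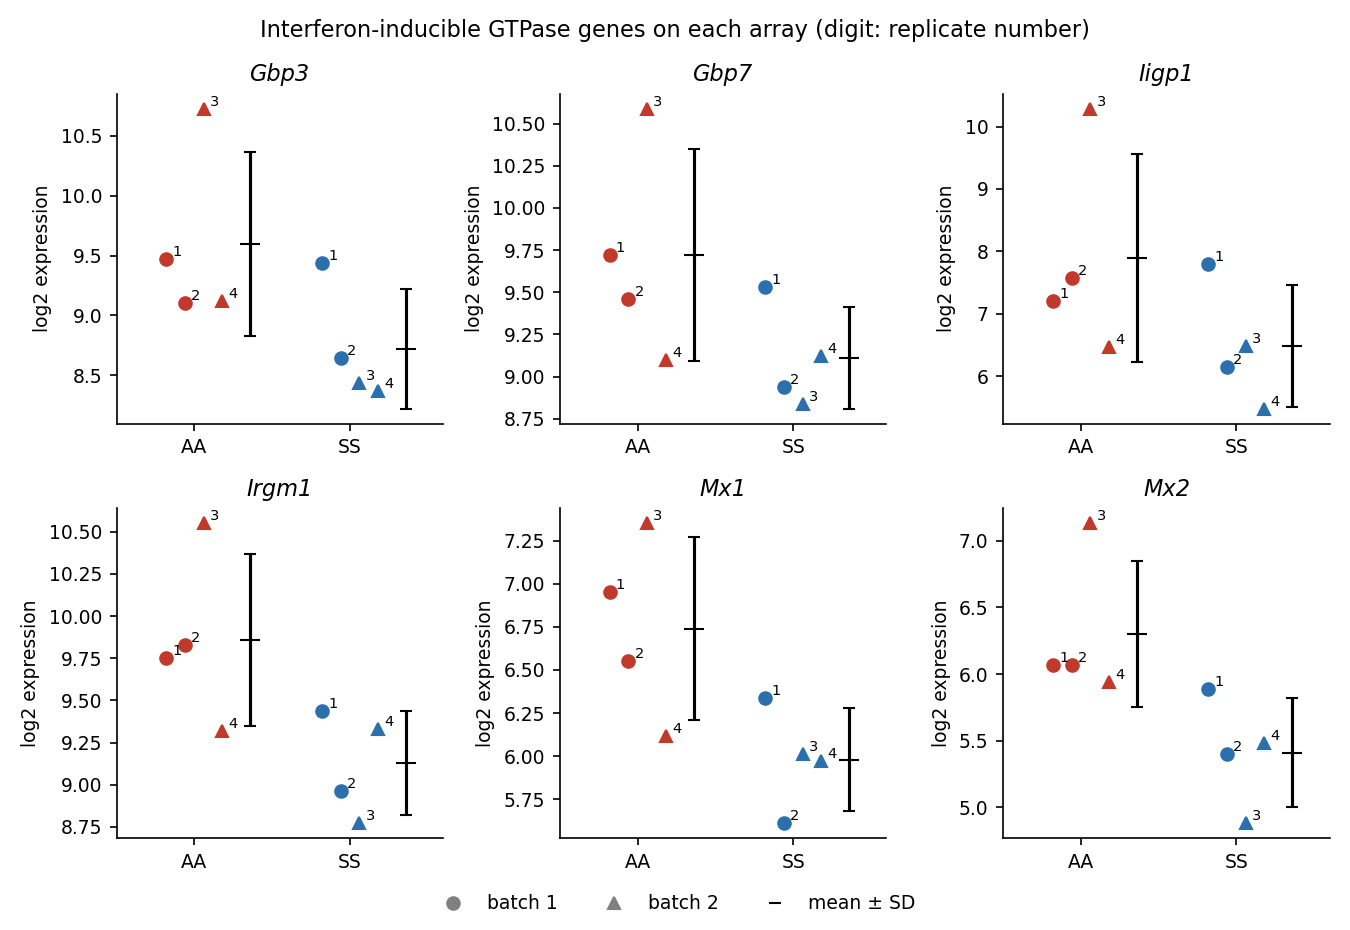
Log2 expression (y axis) of the 6 GTPase genes on each of the 4 AA arrays (red, left) and 4 SS arrays (blue, right), with the mean and SD of each group in black. AA replicate 3 is the highest point in all 6 genes, SS replicate 1 is the highest SS point in all 6, and only in Mx2 do the groups not overlap.

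Gbp3 and Gbp7 are neighbours in the Gbp cluster of mouse chromosome 3, between Gbp5 on one side and Gbp2b on the other. Gbp3, a guanylate-binding protein, read 9.47, 9.10, 10.73 and 9.12 in AA replicates 1 to 4, against 9.44, 8.64, 8.43 and 8.37 in SS replicates 1 to 4. SS replicate 1 lay above AA replicates 2 and 4, and the other 3 SS arrays lay below every AA array. Gbp3 averaged 9.60 ± 0.77 in AA and 8.72 ± 0.50 in SS (SD, n = 4 each). The difference was 0.89 ± 0.38 (SE) on the log2 scale, or 1.85-fold with a 95% interval of 1.03-fold to 3.33-fold (limma, adjusted p = 0.603).

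Gbp7, which in mice has been linked to assembly of the phagocyte oxidase and to autophagy, read 9.72, 9.46, 10.59 and 9.10 in AA replicates 1 to 4, against 9.53, 8.94, 8.84 and 9.12 in SS replicates 1 to 4. AA replicate 4 was below SS replicates 1 and 4 and AA replicate 2 below SS replicate 1, so the groups overlapped. Its means were 9.72 ± 0.63 in AA and 9.11 ± 0.30 in SS (SD, n = 4 each). The difference of 0.61 ± 0.29 (SE) was 1.53-fold, and its 95% interval of 0.967-fold to 2.42-fold included no difference (limma, adjusted p = 0.652).

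Irgm1, a regulatory immunity-related GTPase that sits on membranes of the cell's own organelles and keeps effector GTPases inactive there, read 9.75, 9.83, 10.55 and 9.32 in AA replicates 1 to 4, against 9.44, 8.96, 8.77 and 9.33 in SS replicates 1 to 4. Except for AA replicate 4, which lay just under SS replicates 1 and 4, the AA arrays were above all SS arrays. Irgm1 averaged 9.86 ± 0.51 in AA and 9.13 ± 0.31 in SS (SD, n = 4 each). Its difference was 0.74 ± 0.25 (SE), or 1.67-fold with a 95% interval of 1.12-fold to 2.47-fold (limma, adjusted p = 0.507).

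Iigp1, also called Irga6, is an effector of the same family that coats the vacuole of Toxoplasma. It read 7.20, 7.58, 10.29 and 6.47 in AA replicates 1 to 4, against 7.80, 6.15, 6.49 and 5.48 in SS replicates 1 to 4. This gene had the widest spread of the 6 in both groups, with means of 7.89 ± 1.67 in AA and 6.48 ± 0.98 in SS (SD, n = 4 each). AA replicate 3 lay 2.71 above the next AA array, and SS replicate 1 lay above 3 of the 4 AA arrays. The Iigp1 difference of 1.41 ± 0.78 (SE), or 2.65-fold, was the largest of the 6 and lay within that spread (95% interval 0.778-fold to 9.03-fold, limma, adjusted p = 0.700).

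The Mx genes lie on mouse chromosome 16 with 1 gene, Fam3b, between them. Mx1, whose intact protein acts in the nucleus against influenza-like viruses, read 6.95, 6.55, 7.35 and 6.12 in AA replicates 1 to 4, against 6.34, 5.61, 6.01 and 5.97 in SS replicates 1 to 4. SS replicate 1 lay above AA replicate 4, and no other SS array reached an AA array. Mx1 averaged 6.74 ± 0.53 in AA and 5.98 ± 0.30 in SS (SD, n = 4 each), a difference of 0.76 ± 0.26 (SE) or 1.70-fold with a 95% interval of 1.14-fold to 2.53-fold (limma, adjusted p = 0.503).

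Mx2, whose intact protein acts in the cytoplasm, read 6.07, 6.07, 7.13 and 5.94 in AA replicates 1 to 4, against 5.89, 5.40, 4.88 and 5.48 in SS replicates 1 to 4. Its lowest AA array was just above its highest SS array, and these arrays belong to different batches, whose means are equal in the deposited values. The means were 6.30 ± 0.55 in AA and 5.41 ± 0.41 in SS (SD, n = 4 each). The difference was 0.89 ± 0.29 (SE), or 1.85-fold with a 95% interval of 1.18-fold to 2.91-fold (limma, adjusted p = 0.484). Both Mx genes had mean levels under 7.13, the median over tested probe sets, and the other 4 members had mean levels over it.

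The 6 genes shared 1 order of arrays in its outline. AA replicate 3 was the highest of the 8 arrays in 6 of 6 genes, by 0.39 (Mx1) to 2.71 (Iigp1) over the next AA array. SS replicate 1 was the highest SS array in 6 of 6, by 0.11 (Irgm1) to 1.31 (Iigp1), and AA replicate 4 was the lowest AA array in 5 of 6. With each gene set to its mean over the 8 arrays, the members together averaged 0.28, 0.19, 1.53 and -0.23 in AA replicates 1 to 4, against 0.16, -0.63, -0.68 and -0.62 in SS replicates 1 to 4. In these averages SS replicate 1 was thus above AA replicate 4, and SS replicates 2, 3 and 4 lay below all 4 AA arrays. Single genes departed from this order, as their values above show. Because batch means are equal, the high AA replicate 3 goes with lower readings on the other arrays of batch 2, AA replicate 4 among them. How much of the order comes from this was not tested.

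Without AA replicate 3 the 6 differences stayed above 0 and became smaller. Gbp3 then differed by 0.43, Gbp7 by 0.26 and Iigp1 by 0.44, and their unadjusted p-values in limma were over 0.05. Irgm1 differed by 0.46, Mx1 by 0.52 and Mx2 by 0.56, with unadjusted p-values under 0.05. The median over the members was 0.45 without that array, with 3 of 6 at an unadjusted p under 0.05 beside 5.50% of all tested probe sets. Without SS replicate 1 the median was 0.99 and 6 of 6 were under 0.05 unadjusted, beside 5.58% of all tested probe sets. Without both arrays, a setting chosen after the values were seen, the differences ran from 0.39 for Gbp7 to 0.86 for Iigp1 with a median of 0.66. Over the 8 arrays left out in turn, the number at an unadjusted p under 0.05 ran from 2, without SS replicate 2 (beside 3.62% of all tested probe sets) or SS replicate 3 (beside 4.95%), to 6, without AA replicate 4 (beside 4.99%) or SS replicate 1.

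Both batches gave a difference above 0 in 6 of 6 members, which was true of 25.1% of all tested probe sets. Over the members the median was 1.12 in batch 2, against 0.42 in batch 1. Iigp1 differed by 2.40 in batch 2 and 0.42 in batch 1, Gbp3 by 1.53 and 0.24, and Mx2 by 1.36 and 0.42, in the same order. Mx1 differed about equally, by 0.74 in batch 2 and 0.78 in batch 1. The other 2 were between these, at 0.86 and 0.36 for Gbp7 and 0.89 and 0.58 for Irgm1. Batch 2 holds AA replicate 3. A test of the difference between the batches called none of the 6, with adjusted p-values in limma of 0.539 (Gbp3) to 0.982 (Mx1). That test called 0% of all tested probe sets, and 0 of 6 members but 4.04% of all tested probe sets were larger in batch 2 at an unadjusted p under 0.05. Without AA replicate 4, the lower of the 2 AA arrays of batch 2 in all 6 genes, these counts were 5 of 6 members and 4.90% of all tested probe sets, and 0 members passed the adjusted threshold. The batch 2 minus batch 1 difference of Iigp1 ran from 0.07 without AA replicate 3 to 3.89 without AA replicate 4, that of Gbp3 from 0.48 to 2.09 and that of Mx2 from 0.34 to 1.53, in the same settings.

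**Figure D2:**
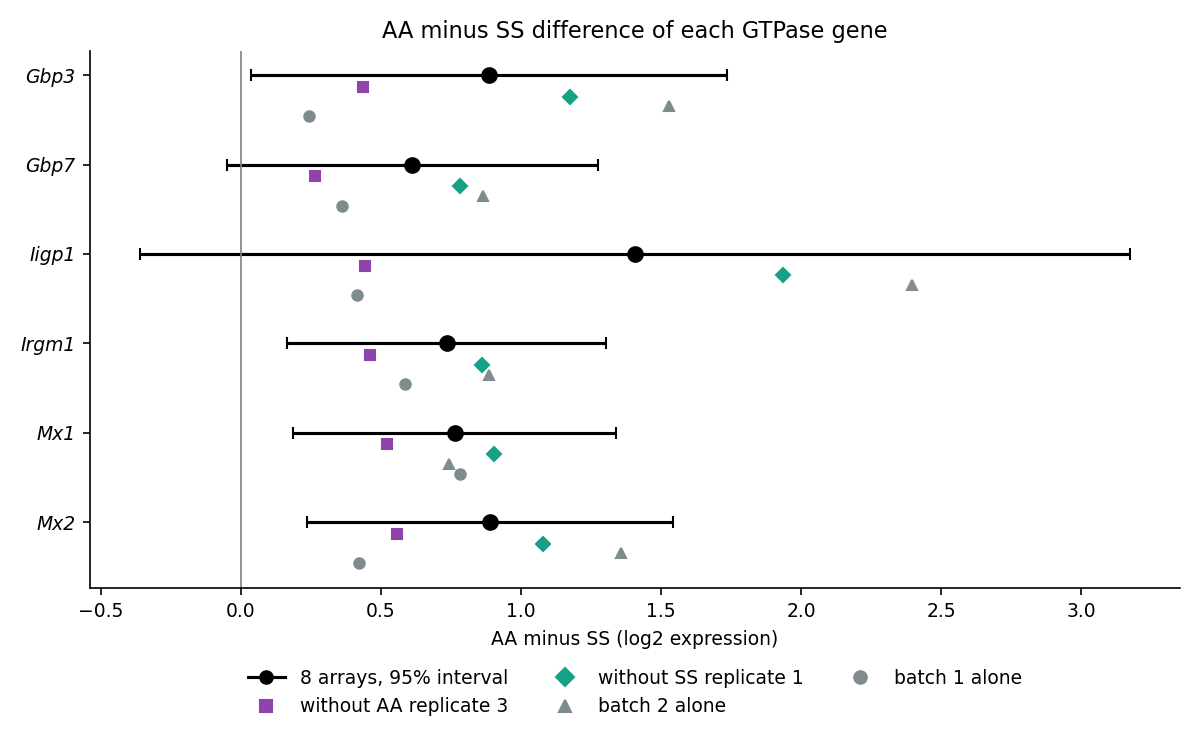
AA minus SS difference on the log2 scale (x axis) of each GTPase gene over all 8 arrays with its 95% interval (black), without AA replicate 3 (purple), without SS replicate 1 (green) and in each batch alone (grey triangles for batch 2, grey circles for batch 1). All values lie right of 0, the intervals of Gbp7 and Iigp1 include 0, and in every gene the value without AA replicate 3 is smaller than that over all 8 arrays.

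Other genes of the same families were given by a list of 28 names, some of them older names of one gene, of which 11 genes had a probe set of their own. Of these 9 had a higher and 2 a lower mean in AA, with a median difference of 0.66. None passed the threshold in limma, and 2 of 11 were higher at an unadjusted p under 0.05, beside 5.38% of all tested probe sets. Gm12250, the effector GTPase also called Irgb10, averaged 9.40 ± 1.12 in AA and 8.01 ± 0.63 in SS (SD, n = 4 each), a difference of 1.39 ± 0.53 (SE, limma, adjusted p = 0.555). Gbp2b, the gene formerly called Gbp1, averaged 10.40 ± 0.62 in AA and 9.70 ± 0.30 in SS (SD, n = 4 each), a difference of 0.70 ± 0.29 (SE, limma, adjusted p = 0.587).

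Among the other guanylate-binding genes the differences were 1.07 for Gbp4, 0.87 for Gbp5, 0.66 for Gbp9, 0.64 for Gbp8 and 0.59 for Gbp11, and limma gave none of them an unadjusted p under 0.05. Gm4951, an immunity-related GTPase gene also called Ifgga2, differed by 1.00 ± 0.54 (SE). In each of these 8 genes, Gm12250 and Gbp2b included, AA replicate 3 was the highest array. The remaining 3 lay nearer 0, at 0.11 for Irgq, -0.02 for Irgc1 and -0.01 for Gm1966. Irgc1 is a testis gene of the family and Irgq a distant relative, and neither is known to respond to interferon. Without AA replicate 3 the list's median was 0.19, with 1 of 11 at an unadjusted p under 0.05, beside 5.5% of all tested probe sets. Gbp4 and Gbp5 then differed by 0.20 and 0.10. The median was 0.82 without SS replicate 1 and 0.27 without both arrays. In these settings 3 of 11 and 5 of 11 were under 0.05 unadjusted, beside 5.58% and 5.5% of all tested probe sets.

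Constitutive GTPases of the dynamin superfamily and the atlastins, which shape membranes in all cells, served as a comparison. Of 10 genes 9 were measured, 5 with a higher and 4 with a lower mean in AA, by a median of 0.01 and a range of -0.21 to 0.17. None had an unadjusted p below 0.05 by limma, beside 5.38% of all tested probe sets that were higher and 2.7% that were lower. The 4 with the smallest p were Dnm1 at 0.17 ± 0.10 (SE), Dnm2 at 0.06 ± 0.10 (SE) and Dnm3 at 0.05 ± 0.10 (SE), which are dynamins, and the mitochondrial fusion GTPase Opa1 at -0.21 ± 0.17 (SE). Without SS replicate 1 Opa1 differed by -0.39 and Dnm1 by 0.24, both under 0.05 unadjusted in limma. In that setting 5.58% of all tested probe sets were higher and 1121 of 18154 lower at that level. The list's median was then 0.01. It was 0.05 without AA replicate 3.

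Interferon ligands and the cytokines that raise them did not share the direction of the members. They averaged 6.14 to 6.38 in AA arrays and 6.27 to 6.44 in SS arrays, under the median level of 7.13 over all tested probe sets. Small differences at low levels may be mostly background and say little about these genes. Of 10 measured from 21 names, 2 had a higher and 8 a lower mean in AA, by a median of -0.13. In limma 0 had an unadjusted p under 0.05, beside 5.38% of all tested probe sets that were higher and 2.7% that were lower. The smallest p-values were those of Ifnk, an interferon of epithelia, at -0.19 ± 0.09 (SE), Il12a and Il12b, the subunits of interleukin 12, at -0.20 ± 0.12 (SE) and 0.14 ± 0.09 (SE), and Ifna5 at -0.15 ± 0.10 (SE). Ifng was not analysed here. Of 7 receptor names 6 genes were measured, 4 with a higher and 2 with a lower mean, by a median of 0.03. Ifnar2, a chain of the type I receptor, differed by 0.63 ± 0.27 (SE, limma, adjusted p = 0.603), and Ifnar1, the other chain, by 0.23 ± 0.11 (SE). Ifngr1, of the interferon gamma receptor, differed by -0.12 ± 0.14 (SE), and Ifnlr1, of the type III receptor, by 0.04 ± 0.11 (SE). Without AA replicate 3 the Ifnar2 difference was 0.35 and 0 of 6 receptors were under 0.05 unadjusted, beside 5.5% of all tested probe sets that were higher. Without SS replicate 1 the receptors' median was -0.02 and Ifnar2 differed by 0.82, and without both arrays Ifnar2 differed by 0.52. In each of these settings 1 of 6 receptors, Ifnar2, was higher at an unadjusted p under 0.05 in limma. All tested probe sets had shares of 5.58% and 5.5%, in the same order. The ligands had 2 with a higher and 8 with a lower mean without either array or both, with medians of -0.17 to -0.06.

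Among 10 measured transducers 5 had a higher and 5 a lower mean, by a median of 0.02. Of the 10, 2 were higher at an unadjusted p under 0.05 in limma, beside 5.38% of all tested probe sets. Stat2 averaged 9.12 ± 0.39 in AA and 8.46 ± 0.27 in SS (SD, n = 4 each), a difference of 0.66 ± 0.21 (SE, limma, adjusted p = 0.463). Irf9 averaged 8.56 ± 0.29 in AA and 8.13 ± 0.20 in SS (SD, n = 4 each), a difference of 0.43 ± 0.16 (SE, limma, adjusted p = 0.555). Irf1, a factor induced by interferon gamma, differed by 0.24 ± 0.11 (SE) on its brighter probe set, and its antagonist Irf2 by -0.16 ± 0.10 (SE). All 4 AA arrays of Irf1 were above its 4 SS arrays, which was true of 4.21% of all tested probe sets. Without AA replicate 3 the differences were 0.43 for Stat2, 0.28 for Irf9 and 0.13 for Irf1. Of the 10, only Stat2 was then under 0.05 unadjusted in limma, beside 5.5% of all tested probe sets that were higher. Without SS replicate 1 the differences of Stat2, Irf9 and Irf1 were 0.80, 0.50 and 0.25. In that setting 2 of 10 transducers were higher at an unadjusted p under 0.05 in limma, beside 5.58% of all tested probe sets. Irf2, at -0.25, was the 1 transducer that was lower, beside 1121 of 18154 probe sets.

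Inhibitors of interferon signalling had a median of 0.06 over 8 measured genes, 6 with a higher mean. Of the 8, 2 were higher at an unadjusted p under 0.05 in limma, beside 5.38% of all tested probe sets. Usp18, an interferon-induced protease that blocks the type I receptor, averaged 8.64 ± 0.69 in AA and 7.48 ± 0.48 in SS (SD, n = 4 each), a difference of 1.15 ± 0.35 (SE, limma, adjusted p = 0.457). Socs3, an inhibitor of cytokine receptors, differed by 0.40 ± 0.17 (SE) on its brighter probe set, Ptpn1, a phosphatase of Janus kinases, by 0.24 ± 0.14 (SE), and Trim24, a repressor of interferon responses in mice, by -0.13 ± 0.13 (SE). Without AA replicate 3 Usp18 differed by 0.79, Socs3 by 0.21 and Ptpn1 by 0.11. Of the 8, only Usp18 was then under 0.05 unadjusted in limma, beside 5.5% of all tested probe sets that were higher. Without SS replicate 1 the list's median was -0.0035 and Usp18 differed by 1.41. In that setting 2 of 8 were higher at an unadjusted p under 0.05 in limma, beside 5.58% of all tested probe sets. Trim24, at -0.25, was the 1 inhibitor that was lower, beside 1121 of 18154 probe sets.

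Genes of LC3 conjugation and ubiquitin transfer, whose products help to place these GTPases on membranes, had a higher mean in 13 of 15, and the median was 0.15. None passed the threshold and 2 were higher at an unadjusted p under 0.05 in limma, beside 5.38% of all tested probe sets. In both of these, Ube2l6 and Gabarapl2, all 4 AA arrays were above all 4 SS arrays, as in 4.21% of all tested probe sets. Ube2l6, which transfers the interferon-induced modifier ISG15, averaged 8.33 ± 0.25 in AA and 7.39 ± 0.17 in SS (SD, n = 4 each), a difference of 0.94 ± 0.14 (SE, limma, adjusted p = 0.237). The LC3-like genes Gabarapl2 and Map1lc3a differed by 0.21 ± 0.08 (SE) and 0.23 ± 0.11 (SE), and Atg7, the activating enzyme of LC3 conjugation, by -0.17 ± 0.09 (SE). In the list of inflammasome genes and Nos2, 5 of 7 had a higher mean, and the median was 0.12. Again none passed the threshold, and 1 gene was higher at an unadjusted p under 0.05 in limma, beside 5.38% of all tested probe sets. That gene was Casp4, the caspase that senses bacterial lipopolysaccharide, at 0.48 ± 0.16 (SE, limma, adjusted p = 0.477). Casp1, Il1b and Nos2 differed by 0.16 ± 0.10 (SE), 0.50 ± 0.42 (SE) and -0.24 ± 0.14 (SE). The Il1b value rested on AA replicate 3, without which it was -0.02. Without that array Ube2l6 and Casp4 differed by 0.80 and 0.46, and without SS replicate 1 by 1.04 and 0.42. Leaving out AA replicate 3, 4 of the 15 LC3 and ubiquitin genes were higher at an unadjusted p under 0.05 in limma, beside 5.5% of all tested probe sets. Leaving out SS replicate 1, 1 of the 15 was higher, beside 5.58%, and 2 were lower, beside 1121 of 18154 probe sets.

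**Figure D3:**
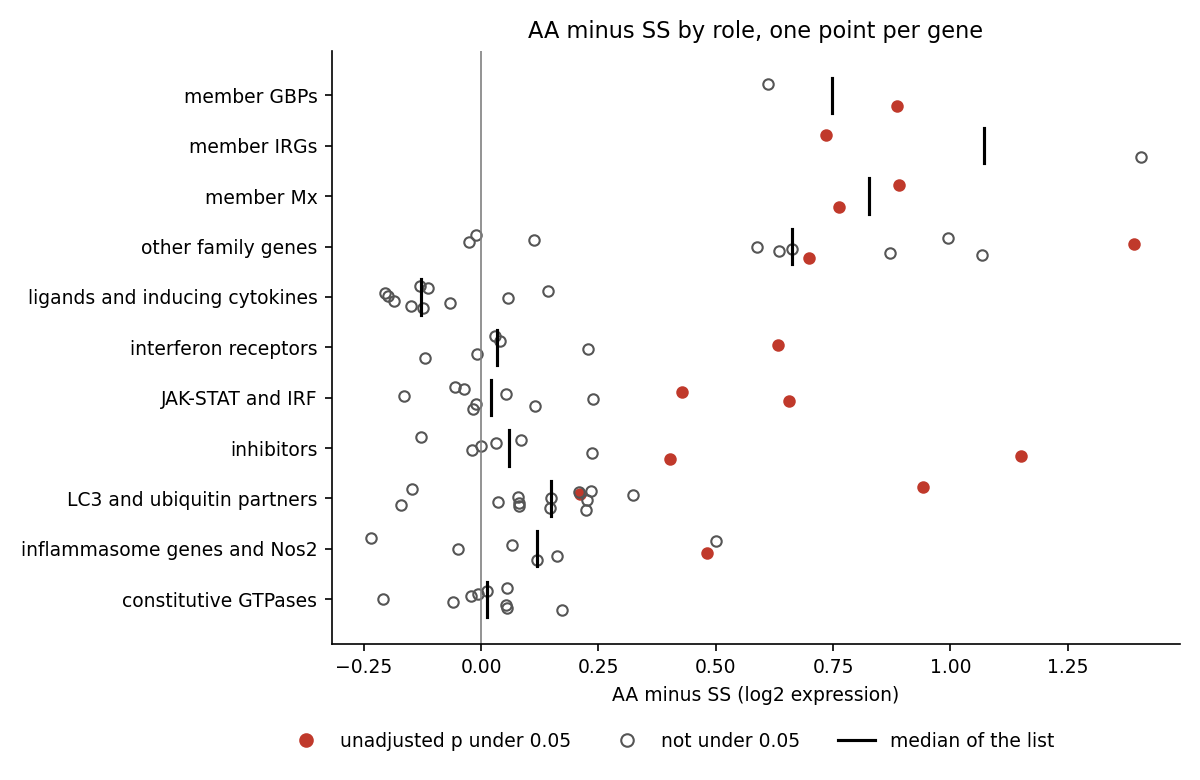
AA minus SS difference on the log2 scale (x axis) of every measured gene by role, 1 point per gene, filled red where limma gave an unadjusted p under 0.05, with the list's median as a bar. The 6 member genes lie between 0.61 and 1.41 and most other genes of the families beside them, while medians of ligands, receptors, transducers, inhibitors and constitutive GTPases lie between -0.13 and 0.06.

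The 6 genes whose levels over the 8 arrays were most like the mean member profile had Pearson's r of 0.981 to 0.991 with it, a description that the shared high reading of AA replicate 3 weighs on. They were Gm12250 (0.991), Tnfrsf1b, a receptor of tumour necrosis factor (0.984), Ifi205, an interferon-induced DNA-binding protein gene (0.984), C1s1, a complement protease (0.982), Tap1, a peptide transporter of antigen presentation (0.982), and Lox, which crosslinks collagen (0.981). Without AA replicate 3 their r values were 0.935 to 0.968.

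The same arrays stood out in marker lists of some other cell types. Macrophage and monocyte markers (12 measured of 14 names) had a mean centred level of -0.29 to 0.98 in AA arrays and -0.54 to 0.29 in SS arrays. AA replicate 3 was the highest of the 8 arrays in 11 of the 12 markers, and SS replicate 1 the highest SS array in 12 of 12. Neutrophil markers (8 of 9 names) spanned -0.20 to 1.00 in AA and -0.47 to 0.26 in SS, and mesothelium markers (8 of 8) -0.15 to 1.20 in AA and -1.08 to 0.27 in SS, with AA replicate 3 highest in 7 of 8 and 8 of 8. Over all 8 arrays the median AA minus SS difference was 0.48 for macrophage, 0.26 for neutrophil and 0.75 for mesothelium markers. Without AA replicate 3 these medians were 0.22, -0.02 and 0.43, and without SS replicate 1 they were 0.76, 0.41 and 1.04. In tissue RNA, more cells of a type and more RNA per cell cannot be told apart. Array levels have no true 0, so no marker can be called absent. The part of these cell types in the GTPase differences was not tested.

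In the other lists AA replicate 3 was the highest of the 8 arrays in at most 6 genes, the 6 being among the 9 fibroblast and matrix markers. T and NK cell markers (13 of 15 names), which include the main makers of interferon gamma, spanned -0.16 to 0.04 in AA and -0.06 to 0.23 in SS. SS replicate 1 was the highest SS array in 10 of these 13. Their average levels were low, at 5.70 to 5.90 in AA arrays and 5.79 to 6.08 in SS arrays, against a median of 7.13 over all tested probe sets. Markers of plasmacytoid dendritic cells (6 of 7), makers of type I interferon, spanned -0.09 to 0.20 in AA and -0.18 to 0.15 in SS. Colonocyte and goblet cell markers (13 of 15) spanned -0.02 to 0.09 in AA and -0.13 to 0.05 in SS, and endothelial markers (9 of 9) -0.06 to 0.15 in AA and -0.13 to 0.02 in SS. Fibroblast and matrix markers (9 of 9) lay at 0.18 to 0.48 in AA and -0.52 to 0.11 in SS. Smooth muscle markers (8 of 8) spanned -0.15 to 0.49 in AA and -0.34 to 0.09 in SS. B cell markers (8 of 9) lay at -0.60 to -0.08 in AA and 0.16 to 0.47 in SS, and adipose markers (8 of 9) at -0.72 to 0.43 in AA and -0.28 to 1.55 in SS. In the adipose list AA replicate 3 was also the highest AA array, at 0.43 against -0.56 in the next, and SS replicate 1, at 1.55, was the highest of all 8.

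**Figure D4:**
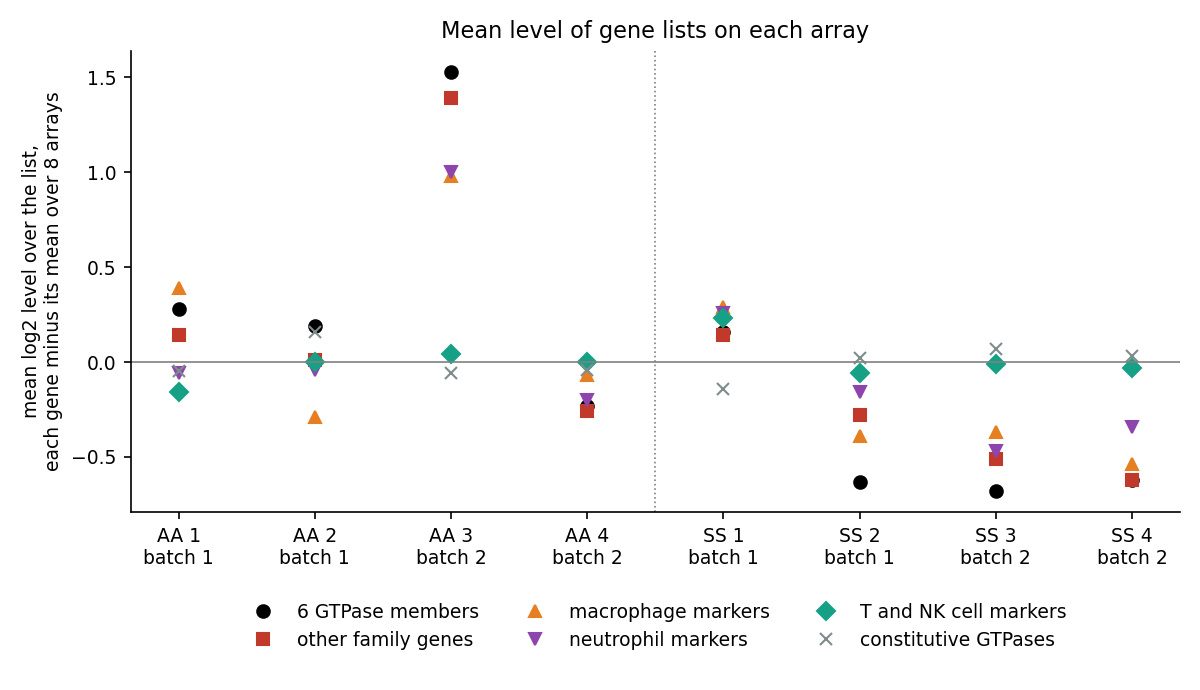
Mean level of gene lists (y axis, log2, each gene minus its mean over the 8 arrays) on the 4 AA arrays (left) and the 4 SS arrays (right), with the batch of each array. The 6 GTPase members reach 1.53 in AA replicate 3, where macrophage and neutrophil markers reach 0.98 and 1.00, while T and NK cell markers and constitutive GTPases stay within -0.16 to 0.23 on all arrays.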

How the data were processed

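RNA of 8 colon samples was measured on Affymetrix mouse gene arrays, 4 AA and 4 SS, with 100 ng of RNA labelled per array. The authors deposited log2 expression, with 1 value for each probe set on each array, and per the submitters' processing notes RMA, Affymetrix Power Tools and Partek 6.4 were used. The sources used here do not give a genome build, an annotation release or filters. In the deposited log2 values the means of the batches are equal for every probe set, a step no source records. The authors' table of gene sets holds no gene values and was not used.

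Differences (AA minus SS) were tested with limma 3.58.1 (lmFit, then eBayes) in R 4.3.3. The model held group and batch and left 5 residual degrees of freedom. It ran over the 18154 probe sets with 1 gene symbol, with no filter. P-values were adjusted by Benjamini-Hochberg with a threshold of 0.05. The 1559 probe sets with several symbols were not named and 3729 were unnamed here. RefSeq's table of GRCm38.p6 held the Entrez identifier of 18092 probe sets, and 0 symbols changed. In lists, the probe set with the highest mean stood for a gene, and the 4 genes with the smallest p were named per list, with all genes of the GTPase families. The 6 genes most like the members were chosen by Pearson's r. The members and lists were chosen with earlier results of these data known. Promoter sequences are from RefSeq, build GRCm38.p6. Precision is limited by the number of arrays, for which there is no sequencing depth. The fit was run on simulated data with independent noise for each probe set and array. Those data held no deviation shared by many genes of 1 array, so they say nothing about that feature. Alternatives covered the batch term, a replicate block, dim probe sets, normalization, variance, array weights, single arrays and single batches.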

Additional observations from a re-analysis of the deposited data

Results flagged for a closer look

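Of the 50 genes named in the text or ranked first in their lists, each examined in 2 groups of 4 arrays, 6 had 1 array whose gap to the nearest other as a share of the group's range, called the ratio here, was above the 95% critical value of Dixon's test. Chance alone gives this in about 1 in 20 groups. Among the members this was Mx2, where AA replicate 3 read 7.13 against 6.07 in the next AA array, a ratio of 0.892. In SS replicate 1 the low reading of Trim24 (7.93, ratio 0.951) and that of Opa1 (8.98, ratio 0.831) stood apart. The others were Ifnk in AA replicate 4 (4.14, ratio 0.858), Casp1 in AA replicate 2 (11.06, ratio 0.836) and Ptpn1 in SS replicate 2 (7.53, ratio 0.836).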

How the results depend on the processing

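Across 19 alternative settings the 112 member differences computed were all above 0, and 0 passed an adjusted p of 0.05. The count of members at an unadjusted p under 0.05 was 2 in batch 2 alone (beside 5.28% of all tested probe sets), 2 in batch 1 alone (4.10%) and 2 with a filter at the median level (7.24% of those kept), which removed both Mx genes and left 4 members. It was 2 to 6 with single arrays left out. Members with all AA arrays above all SS arrays numbered 0 with that filter (5.76%), 3 in batch 2 alone (21.1%), 3 in batch 1 alone (21.4%), 3 without AA replicate 3 and SS replicate 1 together (9.92%), and 1 to 3 with single arrays left out, where 3 came without AA replicate 4 (6.09%) or without SS replicate 1 (6.85%). The median difference was 0.45, without AA replicate 3, to 1.02, without AA replicate 4, with single arrays left out. The batch 2 minus batch 1 difference changed sign with single arrays left out in 3 members and ran from -0.65 to 0.57 in Mx1, from -0.24 to 1.25 in Gbp7 and from -0.31 to 0.91 in Irgm1, and none passed an adjusted p of 0.05. The cause was not tested. Under array weights, where SS replicate 2 weighed 11.5 and the other 7 arrays 0.273 to 1.53, Mx1 had an adjusted p of 0.0664, in a range of 0.0664 to 0.965 over its 18 alternatives. Arrays of 1 number share only that number in the labels. Their deviations from the group means correlated at -0.441 to -0.0929 across probe sets. Arrays of 1 number lie in 1 batch, and equal batch means push correlations within a batch below 0. These values therefore cannot tell whether the numbers pair the samples. With a replicate block 6 of 6 members were at an unadjusted p under 0.05 in limma, beside 4.82% of all tested probe sets, and 0 passed the threshold.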
